A study of Bos taurus with 6 samples.

Results

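The genes described here load peptides onto bovine MHC molecules or encode the class I heavy chains that carry them. The bovine MHC is called BoLA. They were chosen by symbol, as every probe set annotated with BOLA, BoLA, BOLA-DMA, BOLA-DMB, BOLA-DOA, ERAP2 or IFI30 alone. The choice gave 7 of the 12763 probe sets in the table, 1 for each of 7 symbols, and these are 7 of the 6337 symbols that stand alone on a probe set. White blood cells of female Sanhe heifers were profiled on single-colour, biotin-labelled Affymetrix arrays, to follow expression in response to severe cold. The arrays are numbered 1 to 3 after cold and 4 to 6 before it. The cold group's treatment was 3 hours outdoors at -32 °C and then 15 hours in a cowshed at 5 °C, and the labels do not say when within this the blood was drawn. All animals shared a cowshed and a total mixed ration. The 6 RNA samples came from 3 of 30 heifers, each sampled at both times, so each heifer's own earlier blood is the control, and no label says which samples share an animal. With samples of bulk blood cells, fewer cells of a type and less RNA per cell cannot be told apart.

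Class I molecules, built from a heavy chain and beta-2-microglobulin, show peptides from inside the cell to CD8 T cells. These peptides are cut by the proteasome, carried into the endoplasmic reticulum by the TAP transporter and trimmed there by the aminopeptidases ERAP1 and ERAP2. Class II molecules show peptides from engulfed material to CD4 T cells and belong mainly to B cells, monocytes, macrophages and dendritic cells. In their endosomes, the thiol reductase encoded by IFI30 opens disulphide bonds of antigens and cathepsins cut them. The DM heterodimer, made by BOLA-DMA and BOLA-DMB, then exchanges the invariant chain remnant for antigen peptides, and the DO heterodimer, to which BOLA-DOA gives the alpha chain, restrains DM.

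None of the 7 genes differed between blood cells after and before cold beyond the spread between arrays. With limma, 0 of the 7 probe sets passed an adjusted p of 0.05, as did 0 of the 12763 on the array (0%). At an unadjusted p under 0.05 there were 0 of 7 in the same limma fit, and 63 of 12763 (0.494%). The groups overlapped in all 7. In 559 probe sets (4.38%) they did not, with the after arrays higher in 2.07% and lower in 2.31%. Of the 7, 4 had a higher mean after cold and 3 a lower one, with a median log2 difference of 0.05, beside 6687 higher, 6076 lower and a median of 0.019 over all probe sets. Where these genes did vary was between arrays of the same group. BOLA was highest on the after 3 and before 5 arrays, ERAP2 spanned 8.19-fold, and BoLA and IFI30 had their lowest values on the after 2 and before 6 arrays.

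**Figure D1:**
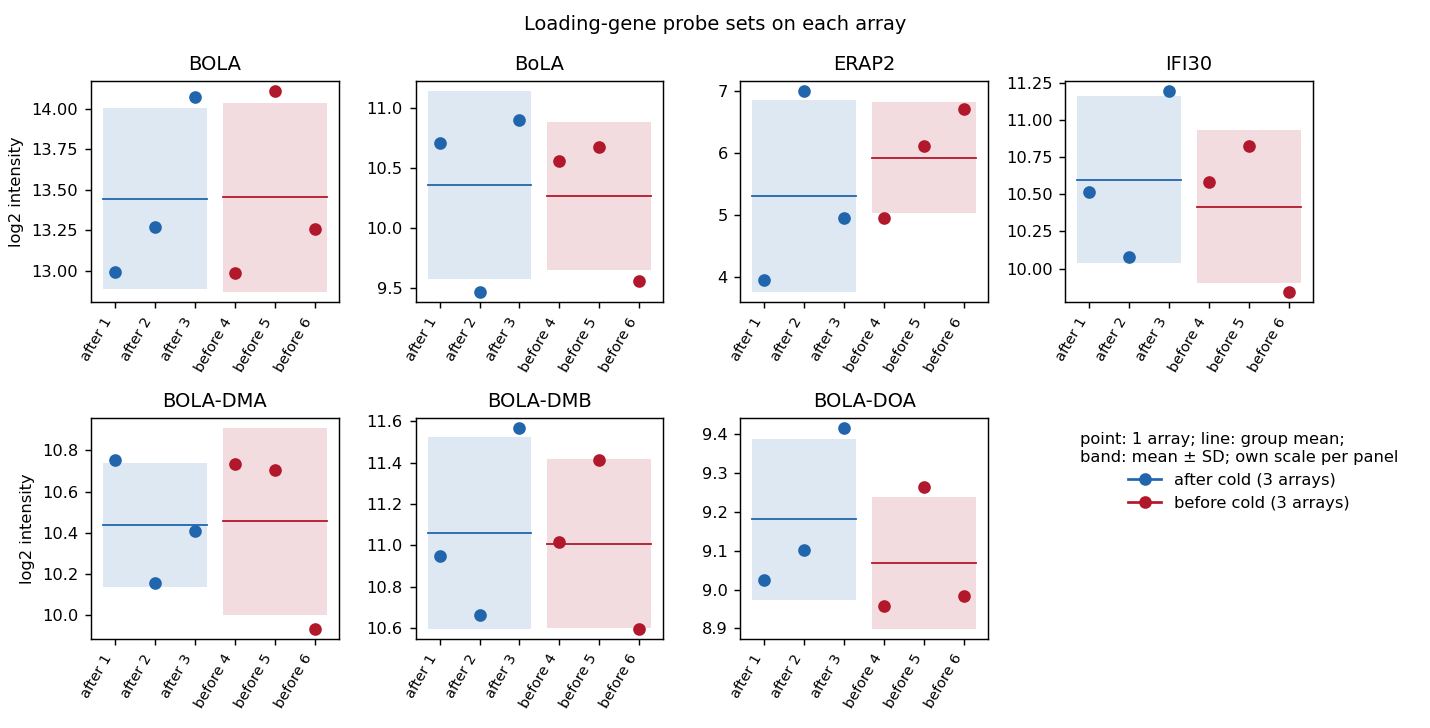
The log2 intensity of each of the 7 probe sets on each array, with the scale set per panel. Points are arrays, lines are group means and bands the mean ± SD of 3 arrays. The groups overlap in every panel, and arrays of a group lie up to 3.03 apart in ERAP2.

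The arrays themselves were not equally alike. The array medians ran from 7.25 to 7.49 on the log2 scale. Over all probe sets, the after 2 and before 6 arrays correlated at 0.995 and stood apart from the rest, each correlating at 0.953 or less with the other 4. The after 3 array stood apart too, at 0.959 or less with every other array. Its score on the first principal component (-63.2) was the farthest from 0. That component held 68.4% of the variance, and after 2 (52.1) and before 6 (52.0) lay on its opposite side. The leucocyte marker PTPRC (CD45) was measured between 11.2 and 12.4 on all arrays, and all 10 T cell markers of a list were measured. Of the B cell list 4 of 10 markers were measured, of the monocyte and macrophage list 6 of 9, and of the dendritic cell list 2 of 8. Measured here means that a probe set carried the symbol alone, and no detection call was used. The dimmest markers were MSR1, at 4.04 to 5.21, CD1B, at 4.40 to 6.15, and CD28, at 4.52 to 6.11. The other markers of these lists were left out for want of a probe set of their own symbol.

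Of the class I heavy chain probe sets, the one annotated BOLA (Entrez 790811) was at 12.99, 13.27 and 14.07 after cold on arrays 1, 2 and 3. Before cold it was at 12.99, 14.11 and 13.26 on arrays 4, 5 and 6. The after 3 and before 5 arrays were high, and the other 4 lay within 0.28 of each other. The means were 13.45 ± 0.56 after and 13.45 ± 0.58 before cold (SD, n = 3 in each group). The difference was -0.0076 ± 0.40 (SE), with a 95% interval from -0.92 to 0.91 (limma, adjusted p = 1.00). Its direction turned without the after 1, after 2 or before 5 array and with median centring, quantile normalization or array weights. Array weights gave 0.65, and the difference without after 3 was -0.32.

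The BOLA signal was close to the brightest on the arrays. On the after 3 and before 5 arrays only 1 probe set was brighter, and on the other 4 arrays 58 to 103 were. As deposited intensities, BOLA was at 17203 and 17669 on after 3 and before 5, where the brightest probe sets were at 18225 and 17983. Whether such a signal is near saturation was not tested. The probe set's name ends in s_at, which in Affymetrix naming marks probes that several transcripts share, so the signal may come from more than 1 class I gene. Its gene identifier is not among those of the RefSeq gene table used here, and the other 6 members are.

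The probe set annotated BoLA (Entrez 533050, with the synonyms BoLA-NC and HD15) had another order of arrays. It was at 10.71, 9.46 and 10.90 on the after arrays 1, 2 and 3, and at 10.56, 10.68 and 9.55 on the before arrays 4, 5 and 6. After 2 and before 6 were low and the other 4 lay between 10.56 and 10.90. The difference of the group means was 0.10 ± 0.46 (SE), with a 95% interval from -0.97 to 1.16 (limma, adjusted p = 1.00). It turned to -0.08 without after 1, -0.18 without after 3, -0.26 without before 6 and -0.17 with array weights. Without the after 2 and before 6 arrays together, chosen after the data were seen, it was 0.19 ± 0.25.

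Some class I probe sets outside these symbols varied more, and some less. The probe set annotated BOLA-N, which codes for a class I heavy chain and is no member, was at 8.80, 11.37 and 14.15 after cold and at 8.75, 14.13 and 11.53 before. As with BOLA, its high arrays were after 3 and before 5. It was the probe set brighter than BOLA on both. Another 12 probe sets carry several class I symbols and cannot be given to 1 gene. Their ranges over the 6 arrays ran from 0.41 to 7.91 with a median of 1.37, against 1.12 for BOLA and 1.44 for BoLA. In 5 of the 12 the range was above that of BoLA, and in another 5 it was under 1. Few of them had their highest values on after 3 and before 5, and more had their lowest values there. The widest, annotated BOLA-N and JSP.1, was lowest on these arrays, at 2.55 and 2.51, against 9.14 or more elsewhere. The next widest, with the same symbols, was also lowest there, at 2.97 and 2.99. Bright probe sets were among those lowest there, such as that with a range of 0.72, at 12.50 and 12.26. Another, with a range of 3.34, was highest there, at 7.62 and 6.45. In 0 of the 12 did the difference after cold pass the limma threshold or an unadjusted p of 0.05, and the differences ran from -0.07 to 0.53.

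ERAP2, the aminopeptidase that trims peptides for class I, was the member with the widest spread. It was at 3.96, 6.99 and 4.95 on the after arrays 1, 2 and 3. On the before arrays 4, 5 and 6 it was at 4.94, 6.11 and 6.70. The highest values were on after 2 and before 6, here the arrays on which BoLA was lowest, and after 1 stood lowest. As intensities these values ran from 15.5 to 127. The group means were 5.30 ± 1.55 after and 5.92 ± 0.89 before cold (SD, n = 3 in each group). The difference was -0.62 ± 0.75 (SE), with a 95% interval from -2.35 to 1.11 (limma, adjusted p = 1.00). That interval holds differences of over 2-fold in either direction.

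The ERAP2 difference depended on single arrays. Without the after 2 array it was -1.46 ± 0.50 (SE; limma, unadjusted p = 0.0160, adjusted p = 0.282), in a fit where 1787 of the 12763 probe sets had an unadjusted p under 0.05. Without before 4 it was -1.10, without after 3 it was -0.44, without before 6 it was -0.23, and without after 1 it was 0.06. Without after 2 and before 6 together it was -1.07 ± 0.48 (unadjusted p = 0.0590). Array weights turned it to 0.58. Over the alternatives the ERAP2 adjusted p ran from 0.282 to 1.00. ERAP2 was also the dimmest member. Only 16.3% of all probe sets had a lower mean, and no detection call was used to set its signal apart from background.

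IFI30, the reductase of the class II pathway, was at 10.52, 10.08 and 11.19 on the after arrays 1, 2 and 3. It was at 10.58, 10.83 and 9.84 on the before arrays 4, 5 and 6. The after 3 array was highest, followed by before 5, and before 6 and after 2 were lowest. The difference was 0.18 ± 0.38 (SE), with a 95% interval from -0.70 to 1.06 (limma, adjusted p = 1.00). It was -0.12 without after 3 and -0.11 without before 6, and 0.44 without after 2.

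Of the DM genes, BOLA-DMB (the beta chain) was at 10.95, 10.66 and 11.57 on the after arrays 1, 2 and 3, and at 11.02, 11.41 and 10.60 on the before arrays 4, 5 and 6. Its order of arrays was close to that of IFI30, with after 3 and before 5 high and after 2 and before 6 low. BOLA-DMA (the alpha chain) was at 10.76, 10.15 and 10.41 after and at 10.73, 10.70 and 9.93 before cold. It too was lowest on before 6 and after 2, but after 3, the highest array for BOLA-DMB, was the third lowest for BOLA-DMA. The differences after cold were 0.05 ± 0.34 (SE) for BOLA-DMB and -0.017 ± 0.32 for BOLA-DMA, with 95% intervals from -0.73 to 0.83 and from -0.75 to 0.71 (limma, adjusted p = 1.00 for both). The BOLA-DMB value turned to -0.20 without after 3 and -0.15 without before 6. The BOLA-DMA value turned to between 0.11 and 0.12 without after 2, before 4 or before 5 and to 0.017 with median centring.

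BOLA-DOA, the alpha chain of DO, varied least. It was at 9.03, 9.10 and 9.42 on the after arrays 1, 2 and 3, and at 8.96, 9.26 and 8.98 on the before arrays 4, 5 and 6. After 3 and before 5 were the highest of their groups, and the other 4 lay between 8.96 and 9.10. The difference was 0.11 ± 0.25 (SE), with a 95% interval from -0.47 to 0.70 (limma, adjusted p = 1.00), and -0.0049 without after 3. BOLA-DMB, BOLA-DMA and BOLA-DOA lie near each other in the RefSeq annotation of ARS-UCD2.0, with BRD2 between the last pair, and ERAP2 lies between ERAP1 and LNPEP.

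**Figure D2:**
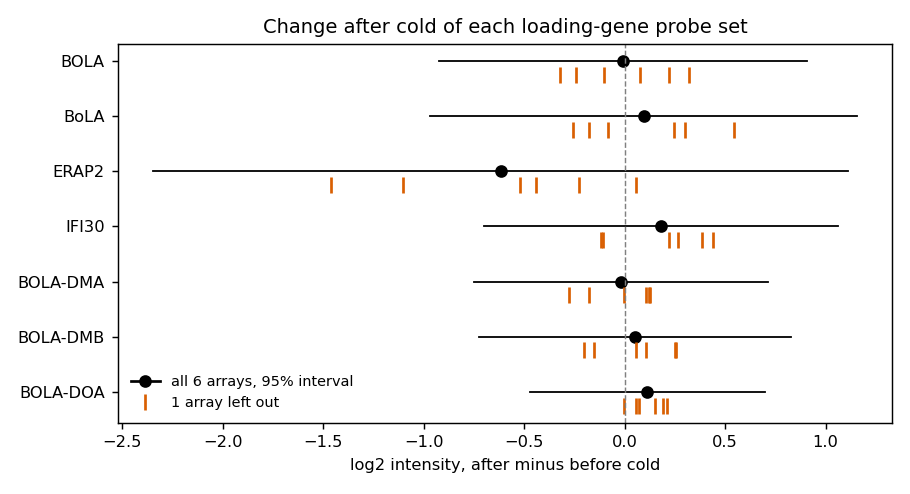
Log2 difference after minus before cold for each of the 7 probe sets. Black points and lines are the limma estimate and its 95% interval over 6 arrays, and orange ticks are the estimates with 1 array left out. All 7 intervals include 0, and each row of ticks lies on both sides of 0.

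The spread over arrays was set beside that of all probe sets. The range, highest minus lowest log2 value, was 3.03 for ERAP2, and 99.7% of all probe sets had a smaller one. It was 1.44 for BoLA (76.2% smaller), 1.35 for IFI30 (71.6%) and 1.12 for BOLA (55.2%). For BOLA-DMB it was 0.97 (43.6%), for BOLA-DMA 0.82 (31.7%) and for BOLA-DOA 0.46 (7.57%). The median range was 1.12 for the 7 and 1.05 for all probe sets. A range over 1, or 2-fold, was seen in 4 of 7 and in 54.0% of all. As a set these genes therefore varied over arrays about as much as the array as a whole, with ERAP2 near the upper end and BOLA-DOA near the lower.

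**Figure D3:**
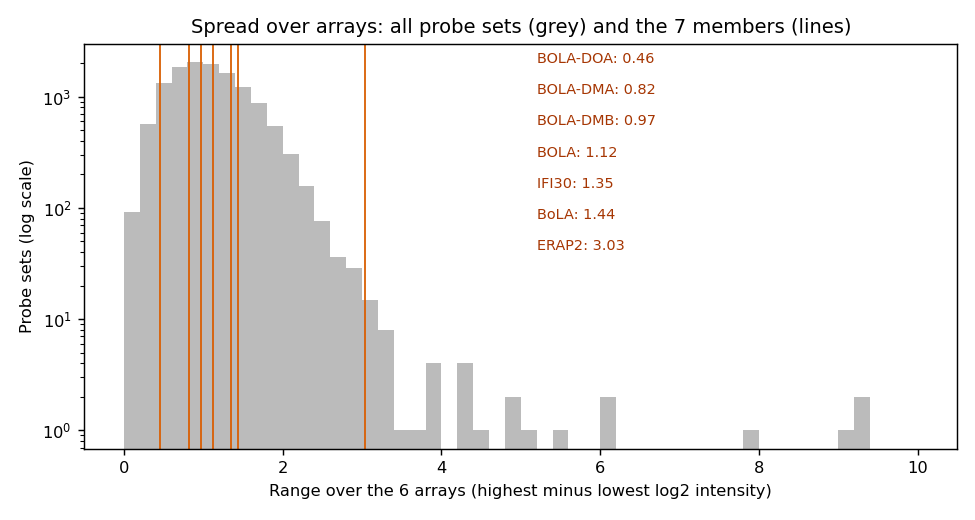
Range over the 6 arrays in log2 units for all 12763 probe sets (grey, counts on a log scale), with the 7 members as lines and their values printed. Of the members only ERAP2, at 3.03, lies in the upper tail.

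Which arrays were high or low differed between the members, but the order of arrays within each group was alike under a shared matching. In all 7, the 3 after arrays had the same order as the 3 before arrays when 1 is set against 4, 2 against 6 and 3 against 5. This order held in 48.5% of the 12719 probe sets without tied values, and in 9 of the 13 class I probe sets outside the rule. With these matches the mean absolute difference between matched arrays was 0.018 for BOLA, and 0.20 to 0.74 under the other 5 matchings. For BOLA-DMB it was 0.10 against 0.29 or more, and for IFI30 0.22 against 0.39 or more. For ERAP2 it was 0.81, against 0.82 for the next matching (1-5, 2-6, 3-4), where BoLA was equally close, at 0.16. BOLA-DOA, at 0.11, was equally close under 1-6, 2-4, 3-5. The median of all probe sets was 0.26 with these matches and 0.31 for the next. The order of the arrays was read from these data, and the labels do not give the animals.

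**Figure D4:**
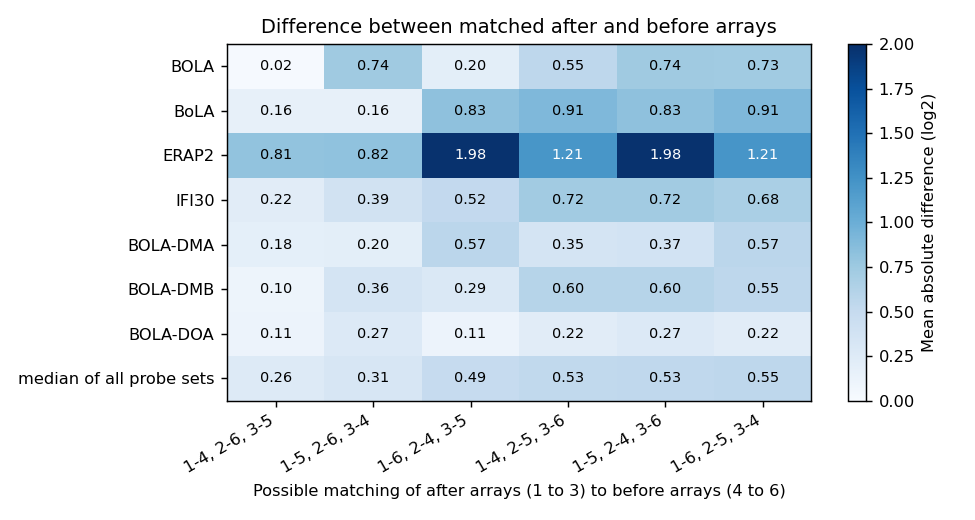
Mean absolute log2 difference between after and before arrays under each of the 6 ways to match them, for the 7 members and as the median of all 12763 probe sets. The matching 1-4, 2-6, 3-5 has the smallest value in each row, tied for BoLA and BOLA-DOA.

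Markers of some blood cell types also differed between these arrays, and those of others had another order. The summed intensity of the 6 monocyte and macrophage markers was 8454, 8187 and 10521 on after 1, 2 and 3, and 7984, 10729 and 7576 on before 4, 5 and 6. It was thus highest on after 3 and before 5, as were BOLA, BOLA-DMB, BOLA-DOA and IFI30. S100A12 alone made up 81.5% to 85.7% of this sum, and the other 5 markers summed to 1945 on after 3, 1982 on before 5 and 1371 or less elsewhere. Within the list, VCAN was highest on after 2 (7.63) and before 6 (7.48). MSR1 was lowest on after 3 (4.04) and highest on before 5 (5.21). The sum of the 4 B cell markers did not follow this order. It was at 5423, 6379 and 6501 on after 1, 2 and 3 and 5466, 5850 and 6499 on before 4, 5 and 6. Single B cell markers differed in order. CD79A was highest on after 3 (10.95) and before 5 (10.58). POU2AF1 was highest on after 3 (10.51) but at 9.70 on before 5, with only before 4 lower (9.41). MS4A1 was highest on before 6 (11.86) and after 2 (11.80), and BLK was lowest on before 5 (9.08) and after 3 (9.43). The 2 dendritic cell markers summed to 273 to 708 after and 335 to 571 before cold. Of 7 listed neutrophil markers 2 were measured, S100A8 and S100A9. Their sum was 16097 on after 3 and 15530 on before 5, and 12450 or less on the others. The 10 T cell markers summed to 11785 on after 3 and 12311 on before 5, their lowest, and to 14423 to 18907 on the others. Not all of the 10 had this order. CD247, CD3G and CD28 were lowest on after 3 and before 5. CD4 was highest on after 3 (6.10) and before 5 (5.54). CD8A was highest on after 3 (10.47) and lowest on before 5 (9.80). PTPRC was highest on after 2 and before 6, at 12.4 on both, as was ERAP2. The part of these cell types in the spread of the members was not tested.

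Other genes of the pathways showed no passing difference either. Of 15 measured class I pathway genes, 10 had a higher mean after cold and 5 a lower one, and 0 passed the limma threshold or an unadjusted p of 0.05. Their median difference was 0.11. TAPBPL, a relative of the peptide editor tapasin, differed by 0.27 ± 0.28 (SE). PSME1, a subunit of the proteasome activator PA28, differed by -0.24 ± 0.25 and TAP2, a subunit of the TAP transporter, by 0.19 ± 0.28. ERAP1, the partner of ERAP2, differed by -0.18 ± 0.35. It was at 7.21, 6.51 and 6.94 after and at 7.45, 7.33 and 6.43 before cold, so that it was low on after 2 and before 6, where ERAP2 was high.

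Of 12 measured class II processing and control genes, 7 had a higher mean after cold and 5 a lower one, with a median difference of 0.0072, and 0 passed the limma threshold. None had an unadjusted p under 0.05 in that fit. CTSS, the protease cathepsin S that trims the invariant chain, differed most. It was at 11.77, 12.11 and 11.21 after and at 12.21, 12.58 and 12.34 before cold, so its groups did not overlap. The difference was -0.68 ± 0.30 (SE; limma, unadjusted p = 0.0545, adjusted p = 1.00). RFX5, a transcription factor of MHC promoters, differed by 0.35 ± 0.28 and NFYA, a subunit of the CCAAT-binding factor NF-Y, by -0.28 ± 0.29. CTSC was the other gene of 12 whose groups did not overlap, at -0.15 ± 0.24, and it is named after its values were seen. Over all probe sets the groups did not overlap in 4.38%, with the after arrays lower in 2.31%. CD74, CIITA and BOLA-DOB are not analysed here.

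Of 5 measured class II chains, 2 had a higher mean after cold and 3 a lower one, with a median difference of -0.03, and 0 passed the limma threshold or an unadjusted p of 0.05. BOLA-DRB3, the beta chain of DR, differed by 0.08 ± 0.26 (SE). The DQ alpha chain probe sets used had much larger ranges than the class II loading genes, at 6.09 for BOLA-DQA2 and 4.28 for BOLA-DQA1. Both were low on after 3 and before 5, and they differed by -0.11 ± 1.89 and -0.25 ± 1.20. The other probe set of each gene ranged over 9.36 for BOLA-DQA2 and 4.84 for BOLA-DQA1. The DQ beta chain gene BOLA-DQB1 ranged over 1.34 by its brightest probe set, the one used here. By its other probe sets it ranged over 3.70 to 9.32.

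**Figure D5:**
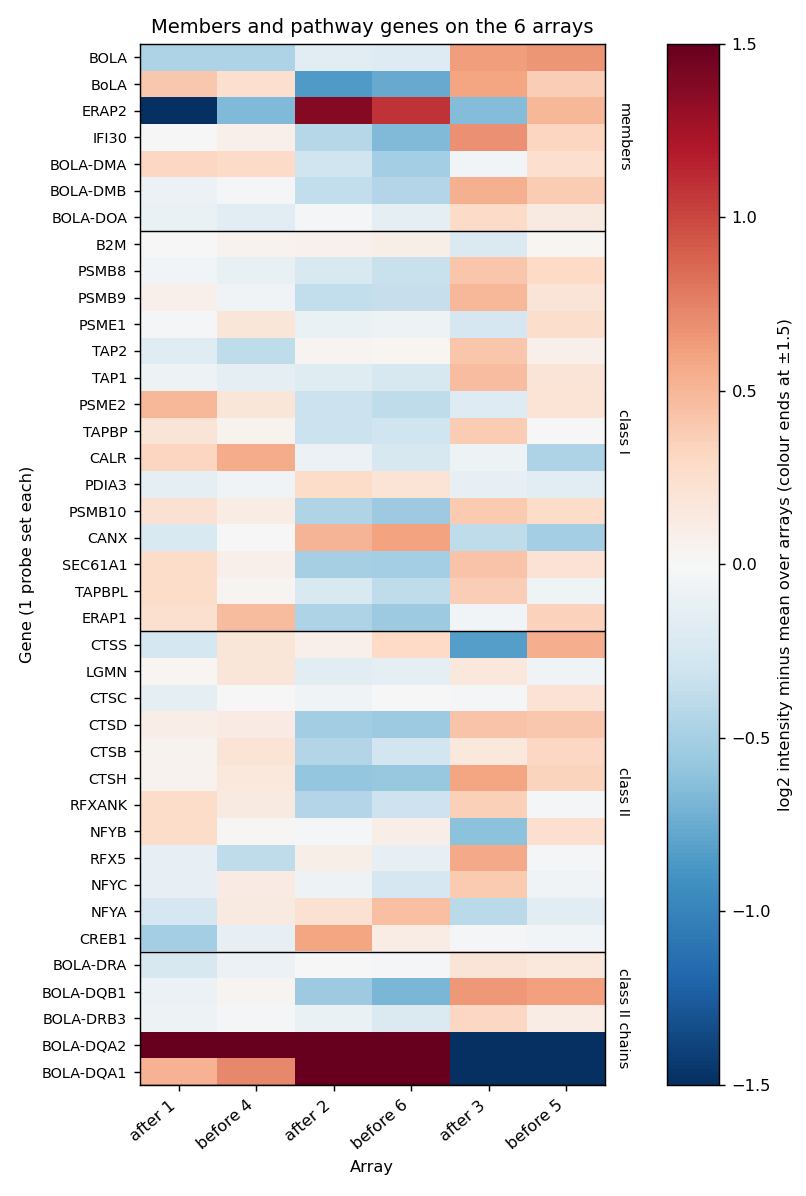
Log2 intensity minus the mean over 6 arrays for the 7 members and 32 pathway genes, 1 probe set each, with arrays set side by side as 1-4, 2-6 and 3-5. Red is above and blue below the gene's mean, and colours end at ±1.5. ERAP2 is lowest on after 1 and highest on after 2, and the probe sets drawn for the DQ alpha chains reach the colour ends.

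Genes with profiles most like each member were sought among probe sets of other genes with a range of at least 1 over the 6 arrays. The correlations describe 6 arrays that share 3 animals, and each member was set against at least 4151 profiles. Closest to BOLA were MANSC1 (Pearson r 0.988), UCHL1 (0.984) and IGFLR1 (0.983), and 33 of 4151 profiles exceeded 0.9. Closest to BoLA were COMTD1, EGFL8 and CUEDC2 (0.999 each), where 800 exceeded 0.9. ERAP2 was closest to CCDC47 (0.998), TLR2 (0.993) and SEC23A (0.989), with 148 over 0.9. IFI30 was closest to UBALD1 (0.997), GNB2 (0.996) and CCL5 (0.994), with 775 over 0.9. BOLA-DMB was closest to SLC11A1 and LGALS3BP (0.998 each) and PROCR (0.994), with 523 over 0.9. BOLA-DOA was closest to NFKBID (0.991), PPP1R3B (0.991) and AP1B1 (0.989), with 90 over 0.9. BOLA-DMA was closest to PCGF1 (0.980), ERAP1 (0.970) and STARD5 (0.967), with 44 over 0.9.

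Among the members themselves, the closest profiles were those of BOLA-DMB and IFI30 (r 0.974 over 6 arrays), BOLA and BOLA-DOA (0.924) and BoLA and IFI30 (0.910). The chains of DM were at 0.562. ERAP2 ran against BoLA (-0.813) and BOLA-DMA (-0.743).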

How the data were processed

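The table deposited by the authors holds a linear intensity per probe set and array. Per the submitters' processing notes GCOS and RMA were used, with no version stated. No further normalization, pseudocount or filter was applied before log2. The number of arrays limits the precision. Names came from the platform annotation, in which 8125 probe sets carry 1 symbol, 56 several and 4582 none. RefSeq's gene table of ARS-UCD2.0 served for names and neighbours only.

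The fit with limma 3.58.1 (R 4.3.3) covered all 12763 probe sets, as the mean after cold minus that before, two-sided, with moderated variance, no block and Benjamini-Hochberg adjustment, at an adjusted p of 0.05. The p-values treat arrays that share an animal as separate. An exact permutation test of 3 against 3 arrays cannot go below p = 0.1. A pathway gene is represented by its probe set with the highest mean. The text names every member, the 3 pathway genes per list with the largest difference, and the 3 closest profiles per member. Members and lists were chosen with earlier results of these data known. The script was tested on simulated data. Alternatives were filters on dim probe sets, median centring, quantile normalization, an intensity trend, array weights, leaving out arrays, and a block for each of 6 matchings of the samples.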

Additional observations from a re-analysis of the deposited data

How the results depend on the processing

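With limma, 0 of the 7 members and 0 of the 32 pathway genes passed an adjusted p of 0.05 in every setting run, also with the probe set of the largest range for a gene. At an unadjusted p under 0.05 both counts were 0, and over the refits it became 1 member (ERAP2, without after 2) or 1 pathway gene (CTSS or RFX5) in some. In those refits 70 (intensity trend) to 1787 (without after 2) of 12763 probe sets were under that limit, against 63 in the main fit. Of 131 differences of members under alternatives, 21 had the opposite sign and 0 passed. The smallest adjusted p was 0.282. Outside left-out arrays, signs turned for BOLA with median centring (0.027), quantile normalization (0.026) and array weights (0.65), for BOLA-DMA with median centring (0.017), and with array weights for BoLA (-0.17) and ERAP2 (0.58). The cause was not tested. Leaving out each array gave -0.32 to 0.32 for BOLA, -0.28 to 0.12 for BOLA-DMA, -0.20 to 0.25 for BOLA-DMB, -0.0049 to 0.21 for BOLA-DOA, -0.26 to 0.54 for BoLA, -1.46 to 0.055 for ERAP2 and -0.12 to 0.44 for IFI30. A block for matched samples left the differences as they were and changed their errors: for ERAP2 the SE ran from 0.29 to 0.75 and the adjusted p from 0.492 to 1.00 over the 6 matchings. ERAP2 was not tested without the dimmest 25% or 50%, which leave it out. The array weights did not fully converge. No measure of background was at hand to say what dim signal limits.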
